A study of Marchantia polymorpha and Arabidopsis thaliana and Oryza sativa Japonica Group with 80 samples.

Results

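Seedlings of Arabidopsis thaliana Col-0, the common laboratory strain, were compared after 6 h in medium with 100 mM NaCl and at 0 h. The comparison rests on 4 of the 16 libraries of the Col-0 time course, 2 per time, in a series of 80 samples. Per the labels, all of these seedlings were wild type, 7 days old, and grown in liquid half-strength Murashige and Skoog medium under continuous light, and RNA came from the whole seedling. Samples at 1, 3 and 12 h are used below to ask what had moved earlier, what had returned and what changed next. The time course has no library of untreated seedlings at 6 h in the set analysed here, so salt, handling and the 6 h that passed cannot be told apart. The labels do not say whether replicates came from separate cultures, so p-values measure the spread between these libraries, which may be technical.

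Salt stress lowers the water available to roots and brings sodium into the cell. Plants answer in part through abscisic acid (ABA), a hormone made under water shortage. ABA is bound by receptors of the PYR/PYL family, which then block the clade A PP2C phosphatases. The SnRK2 kinases, freed from these phosphatases, act on transcription factors that switch on genes for protective proteins such as dehydrins, for compatible solutes such as proline, and for the waxy surface layer. Several of these components are themselves regulated by ABA at the RNA level, the phosphatases upward and some of the receptors downward.

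The 16 libraries held 18404537 to 24148375 counted reads each, with 21872820 and 21750416 at 0 h and 20927824 and 18404537 at 6 h. Green shoot markers and root markers were detected in all 4 libraries. The summed level of 6 shoot markers was 41590 and 57640 CPM (read counts scaled to a common library size) at 0 h and 68460 and 60890 CPM at 6 h, and the sum of the 5 root markers analysed was 50.7 and 75.5 CPM at 0 h and 104 and 83.7 CPM at 6 h. Both sums were higher in both 6 h libraries. Of the root markers CASP1, PIN2 and ESB1 were higher in both and COBL9 and PRP3 were lower in both. Markers that are also members of gene lists used below include CASP1, PIN2, PRP3 and the shoot markers LHCB3 and PSAD2. The other shoot markers are photosynthesis genes as well. Chloroplast-encoded genes took 0.394% of the reads in replicate 2 at 0 h, 0.124% in replicate 1, and 0.0980% and 0.168% at 6 h. This share was higher in replicate 2 than in replicate 1 at every time of the course. The seed storage gene CRA1 was uneven, with 88.9 and 10.2 CPM at 0 h and 66.1 and 124 CPM at 6 h. Their part in the results was not tested. In whole seedlings, fewer cells of a type and less RNA per cell cannot be told apart.

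At 6 h, 1001 of 15407 genes tested, or 6.50%, differed from 0 h at an adjusted p below 0.05 in edgeR's quasi-likelihood test, and such genes are referred to as called. Of these, 656 were higher (4.26% of genes tested) and 345 lower (2.24%). Changes past 2-fold were found in 377 of the higher and 183 of the lower genes, and past 4-fold in 126 and 42. The median log2 fold change was 1.12 over the higher genes, -1.03 over the lower genes and -0.01 over all genes tested. All 1001 called genes had no overlap between the 4 libraries, against 58.9% of all genes tested. The count depends on having 2 libraries at each time. It was 184 without replicate 1 at 0 h, 338 without replicate 2 at 0 h, 204 without replicate 1 at 6 h and 369 without replicate 2 at 6 h, and 2011 when the 4 libraries were fitted alone. With DESeq2 it was 1527.

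The files do not pair identifiers with gene names, so names come from 42 lists of genes with known roles, which hold 843 genes, of which 609 had a row in the table and 569 were tested. Counts of list members called at 6 h are to be read beside 4.26% of all genes tested called higher and 2.24% called lower. Of the tested members 102 were called at 6 h. These included 32 that stayed called whichever of the 4 libraries was left out and 70 that lost the call in at least 1 of these fits. Among genes without a name here, AT2G41810 rose from 0.0436 and 0.200 CPM to 11.3 and 9.68 CPM, and AT4G01630 rose from 0.218 and 0.299 CPM to 15.4 and 12.8 CPM. AT1G17960 fell from 23.8 and 20.12 CPM to 3.83 and 4.24 CPM, and AT1G07135 fell from 35.4 and 28.0 CPM to 5.39 and 6.54 CPM.

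**Figure D1:**
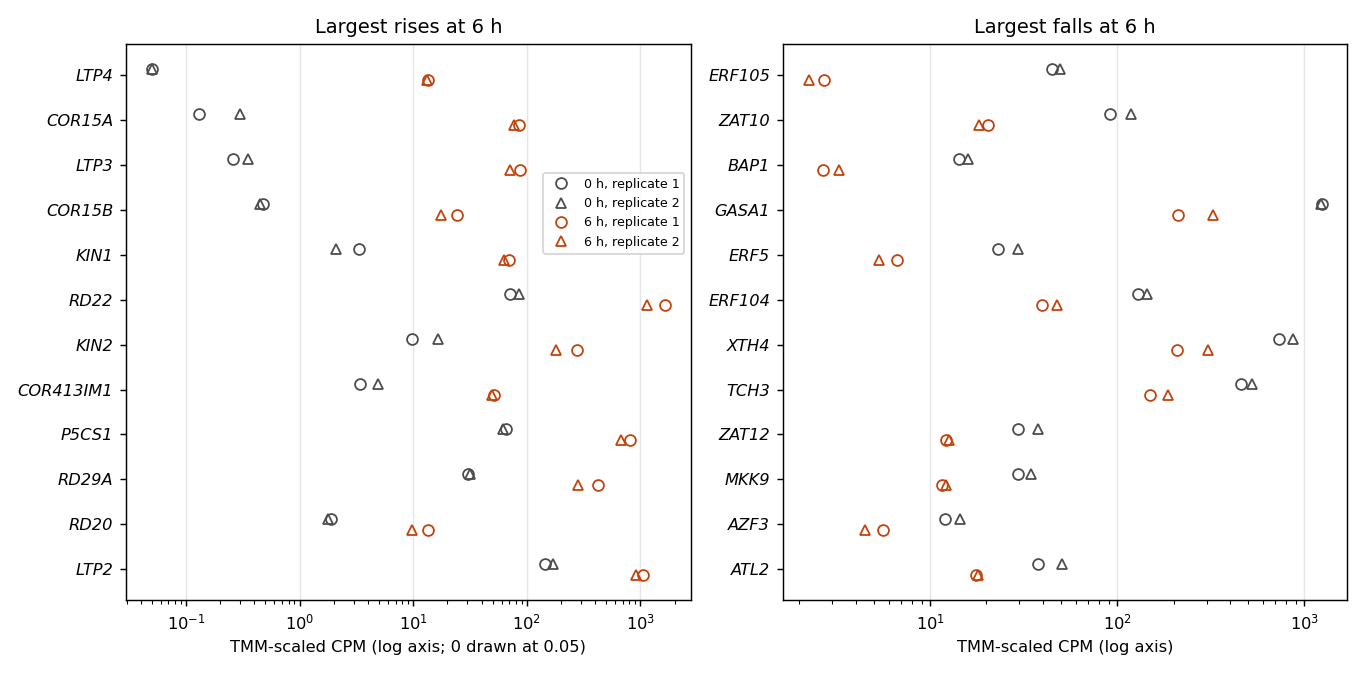
Levels in the 4 libraries of the 12 named genes that rose most (left) and the 12 that fell most (right). They were taken from called genes with a mean of at least 5 CPM and no overlap between the times. The x axis is TMM-scaled CPM on a log axis, grey is 0 h, orange is 6 h, circles are replicate 1 and triangles replicate 2. By the choice of genes, both 6 h libraries lie on the same side of both 0 h libraries in every gene. RD22, for instance, stood at 1648 and 1136 CPM against 70.9 and 84.8 CPM.

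Genes for protective proteins of the dehydrin and late embryogenesis abundant (LEA) type were the group with the highest median at 6 h. Of 20 tested members, 11 rose and 1 fell, with a median log2 fold change of 1.93, against 4.26% and 2.24% of all genes. RD22 (AT5G25610), a dehydration-responsive gene with a BURP domain, had 70.9 and 84.8 CPM at 0 h and 1648 and 1136 CPM at 6 h. Its log2 fold change was 4.16 (SE 0.36; edgeR adjusted p = 0.000154), or 17.9-fold. KIN2 (AT5G15970), a small cold- and ABA-inducible protein, stood at 9.77 and 16.7 CPM and then at 277 and 182 CPM, a log2 fold change of 4.12 (SE 0.34; edgeR adjusted p = 0.000141). For both genes all 6 h values were more than 10 times the 0 h values. RD29A (AT5G52310), a widely used reporter of drought and salt responses, had 30.6 and 31.9 CPM at 0 h and 427 and 282 CPM at 6 h (log2 fold change 3.504, SE 0.41; edgeR adjusted p = 0.000607). COR413IM1 (AT1G29395), a protein of the chloroplast inner membrane, rose from 3.403 and 4.94 CPM to 51.4 and 49.1 CPM (log2 fold change 3.59, SE 0.39; edgeR adjusted p = 0.000499).

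The gene pair COR15A and COR15B, which encode chloroplast proteins that protect membranes in the cold, and the pair KIN1 and KIN2 are related copies. Their sequences were not compared here. The counting could split reads within a pair, so their separate values are uncertain. COR15A (AT2G42540) went from 0.131 and 0.300 CPM to 85.4 and 77.9 CPM, COR15B from 0.480 and 0.449 CPM to 24.3 and 17.7 CPM, and KIN1 from 3.36 and 2.097 CPM to 70.3 and 63.2 CPM. All of these were far above 0 h in both libraries. The caleosin RD20, a calcium-binding lipid-droplet protein, rose to 13.5 and 9.74 CPM from 1.88 and 1.797 CPM (edgeR adjusted p = 0.0168). Without replicate 1 at 0 h the number of members that rose was 6, and COR15A was then at an edgeR adjusted p of 0.0577. RD20 lost its call without either 0 h library and without replicate 1 at 6 h (highest edgeR adjusted p = 0.136).

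A subset of the same list did not pass the test and was uneven at 0 h. RAB18, a dehydrin, stood at 43.1 and 7.09 CPM at 0 h and 76.8 and 96.2 CPM at 6 h (edgeR adjusted p = 0.222). RD29B, EM6, LEA4-5 and ECP63 shared this pattern, and all 5 genes were named after their values were seen. Replicate 1 exceeded replicate 2 at 0 h by between 6.09 times (RAB18) and 15.6 times (ECP63), whereas the other 15 members lay between 0.437 and 1.602 times. The seed gene CRA1 was also higher in replicate 1 at 0 h. SAG21, the member that fell, also known from leaf senescence and named after its values were seen, stood at 1079 and 1276 CPM at 0 h and 656 and 539 CPM at 6 h (edgeR adjusted p = 0.00874). That call was lost without replicate 2 at 0 h and without either 6 h library, with a highest edgeR adjusted p of 0.0892.

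Lipid transfer proteins, small secreted proteins that carry lipids to the surface layer, rose strongly. LTP4 (AT5G59310) had 0 counts in both 0 h libraries and 13.4 and 13.2 CPM at 6 h, so it was at least 191-fold higher, set against a floor of 3 counts over the 0 h group, which covers counting error only. LTP3 (AT5G59320), its related neighbour, had 0.262 and 0.349 CPM at 0 h and 86.5 and 71.3 CPM at 6 h (log2 fold change 8.00, SE 0.67; edgeR adjusted p = 0.000141). Both went from almost no reads to clear expression, and reads of the pair could be split between them. LTP2 went from 144 and 171 CPM to 1065 and 912 CPM (log2 fold change 2.65, SE 0.38; edgeR adjusted p = 0.00220). KCS2, an enzyme that elongates fatty acids for suberin and waxes, stood at 3.05 and 3.09 CPM at 0 h and 22.4 and 15.2 CPM at 6 h (log2 fold change 2.61, SE 0.25; edgeR adjusted p = 0.000289). In the list of cuticular wax and lipid transfer genes 5 of 12 tested members rose and 0 fell, and 4 to 5 rose whichever library was left out. The 7 others had been higher at 3 h, and their state at 6 h is described below.

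In the suberin list, which covers the waterproof polymer of root cell walls, 2 of 4 tested members rose and 1 fell. ABCG6, a transporter of suberin building blocks, rose from 0.785 and 0.599 CPM to 10.4 and 6.78 CPM (log2 fold change 3.61, SE 0.49; edgeR adjusted p = 0.00145). ASFT, which attaches ferulate to suberin lipids, went from 10.2 and 12.1 CPM to 37.8 and 27.3 CPM (edgeR adjusted p = 0.0167), a call lost without either 0 h library and without replicate 1 at 6 h. The member that fell was KCS20, another fatty acid elongation enzyme, with a log2 fold change of -0.70 and an edgeR adjusted p that rose from 0.0126 to at most 0.118 when 1 library was left out. Of 7 tested genes of the Casparian strip, the lignin barrier of the root, 2 rose: PER64, a peroxidase, from 7.90 and 10.7 CPM to 23.9 and 19.5 CPM, and CASP4, a membrane scaffold, from 0.829 and 1.55 CPM to 4.17 and 4.11 CPM. PER64 lost its call without replicate 1 at 0 h or replicate 1 at 6 h (highest edgeR adjusted p = 0.150), and CASP4 without replicate 1 at 0 h or either 6 h library (highest 0.156). The root markers rose in sum over the same samples, but that sum includes CASP1 of the Casparian strip list. CASP1 went from 9.16 and 15.4 CPM to 27.7 and 22.4 CPM. ESB1, the marker with the highest level, went from 18.6 and 26.8 CPM to 49.0 and 35.5 CPM, and PIN2 was also higher in both 6 h libraries. The sum is therefore not a general rise of root markers. The root markers COBL9 and PRP3 were lower in both 6 h libraries.

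Of 15 tested genes for proline, raffinose and other compatible solutes, 3 rose and 1 fell, the latter SIP2, a raffinose-splitting enzyme named after its values were seen. P5CS1 (AT2G39800), the rate-limiting enzyme of proline synthesis, had 65.7 and 61.4 CPM at 0 h and 806 and 677 CPM at 6 h. Its log2 fold change of 3.54 (SE 0.27; edgeR adjusted p = 9.41e-05) corresponds to 11.7-fold. MIPS2, which makes inositol phosphate for galactinol, rose from 27.8 and 31.3 CPM to 98.0 and 80.1 CPM, and GOLS1, a galactinol synthase of the raffinose pathway, from 9.25 and 13.2 CPM to 26.7 and 26.1 CPM. The same 3 genes were called whichever of the 4 libraries was left out. The list's median log2 fold change was 0.17.

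Of 18 tested genes for sodium, potassium and anion transport, 1 rose and 0 fell at 6 h, against 4.26% and 2.24% of all genes, and 10 were above 0 h in both 6 h libraries, against 29.7%. It was NHX2, a vacuolar exchanger that loads sodium or potassium into the vacuole, with 7.02 and 5.54 CPM at 0 h and 13.4 and 14.4 CPM at 6 h (log2 fold change 1.14, SE 0.24; edgeR adjusted p = 0.0158). The call was lost without any one of the 4 libraries (highest edgeR adjusted p = 0.119). The vacuolar proton pump AVP1 had 1074 and 1196 CPM at 0 h and 1390 and 1628 CPM at 6 h, with an edgeR adjusted p of 0.176. Among 13 tested aquaporins, the water channels, 9 were above 0 h in both 6 h libraries, with a median of 0.56, and 1 rose: PIP2;3, from 63.7 and 84.9 CPM to 173 and 145 CPM (edgeR adjusted p = 0.0118). Its sequence is nearly that of PIP2;2, so its reads are uncertain, and the call was lost without replicate 1 at 0 h or replicate 1 at 6 h (highest edgeR adjusted p = 0.141).

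In sulfate assimilation 3 of 5 tested members rose: APR1, an adenosine phosphosulfate reductase, from 8.59 and 7.29 CPM to 42.7 and 26.6 CPM (log2 fold change 2.12, SE 0.34; edgeR adjusted p = 0.00358), its paralogue APR2, and the root sulfate transporter SULTR1;2, from 28.0 and 22.3 CPM to 87.3 and 104 CPM (edgeR adjusted p = 0.00589). Without either 0 h library 1 of these was called, and without replicate 1 at 6 h 2 were. Of 9 tested phosphate starvation genes 2 rose, the phosphate transporters PHT1;4, from 9.34 and 10.6 CPM to 32.7 and 30.1 CPM (edgeR adjusted p = 0.00177), and PHT1;1, from 36.2 and 45.6 CPM to 167 and 150.1 CPM (edgeR adjusted p = 0.00378). Without replicate 1 at 0 h PHT1;1 was at 0.0635. The high-affinity nitrate transporter NRT2.1 went from 0 and 0.0499 CPM, 1 count in all, to 2.44 and 2.42 CPM, a ratio of 104 with a 95% counting interval of 18.25 to 4176.

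In the nitrogen list 3 of 17 tested members fell, against 2.24% of all genes, NRT2.1 was the 1 that was higher, and the median log2 fold change was -0.29. GDH1 (AT5G18170), a glutamate dehydrogenase that releases ammonium from glutamate, had 291 and 288 CPM at 0 h and 114 and 132 CPM at 6 h (log2 fold change -1.23, SE 0.17; edgeR adjusted p = 0.00200). GDH2, its partner subunit, went from 1493 and 1693 CPM to 643 and 845 CPM (edgeR adjusted p = 0.0273), and NIA1, a nitrate reductase named after its values were seen, from 2368 and 2610 CPM to 1395 and 1359 CPM (edgeR adjusted p = 0.0280). Without any one of the 4 libraries GDH1 alone kept its call. Of 15 tested glucosinolate and camalexin genes 4 rose. MYB34, a regulator of indole glucosinolates, rose from 11.2 and 9.14 CPM to 29.0 and 22.9 CPM (edgeR adjusted p = 0.00276), and 1 to 2 of the 4 were called when 1 library was left out. In the iron list 1 of 14 rose, NAS1, which makes the metal chelator nicotianamine (edgeR adjusted p = 0.00739; highest 0.104 without 1 library), from 0.436 and 0.799 CPM to 2.499 and 2.42 CPM.

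Several expansins, proteins that loosen the wall as cells expand, were higher at 6 h. Of 10 tested members 4 rose and 0 fell, and 3 rose whichever library was left out. EXPA8 (AT2G40610) had 12.3 and 14.5 CPM at 0 h and 84.7 and 60.3 CPM at 6 h (log2 fold change 2.44, SE 0.24; edgeR adjusted p = 0.000289). EXPA1 (AT1G69530) had 291 and 311 CPM and then 1139 and 825 CPM (log2 fold change 1.70, SE 0.19; edgeR adjusted p = 0.000530). At 1 h both genes were below 0 h, with log2 fold changes of -0.97 and -0.72, and both called, so the step from 1 h to 6 h was 3.41 and 2.42 on the log2 scale (1399 genes, 9.08% of those tested, were higher and 9.22% lower at 6 h than at 1 h). EXPA10 differed in course: it was 2.98 above 0 h on the log2 scale at 1 h, 2.55 at 3 h and 2.56 at 6 h, with 136 and 89.6 CPM at 6 h against 19.1 and 19.02 CPM at 0 h.

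Xyloglucan enzymes of the XTH family, which cut and rejoin wall polymers, split. XTH20 rose from 1.09 and 0.899 CPM to 8.22 and 7.75 CPM (log2 fold change 2.99, SE 0.30; edgeR adjusted p = 0.000298), and XTH4 fell from 727 and 872 CPM to 208 and 305 CPM (log2 fold change -1.64, SE 0.30; edgeR adjusted p = 0.00748). The XTH4 call was lost without replicate 2 at 0 h or replicate 1 at 6 h (highest edgeR adjusted p = 0.119). The other 8 tested members were not called, with a list median of -0.90, and 8 of 10 were below 0 h in both 6 h libraries, against 29.1% of all genes. In cellulose synthesis 1 of 8 rose, CESA7, a subunit of the secondary wall enzyme, from 7.24 and 7.49 CPM to 14.6 and 15.5 CPM (edgeR adjusted p = 0.0104; lost without any one of the 4 libraries, highest 0.102). Of 7 tested root hair genes 0 were called.

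Among genes with a name here, ERF105, an ethylene response factor, had the largest called fall by log2 fold change. Of 13 tested ethylene response factors 0 rose and 4 fell, against 4.26% and 2.24% of all genes, with a list median of -0.66. ERF105 (AT5G51190) had 44.6 and 49.4 CPM at 0 h and 2.72 and 2.24 CPM at 6 h (log2 fold change -4.24, SE 0.63; edgeR adjusted p = 0.00266), or 18.9-fold lower. ERF104, a target of a mitogen-activated protein kinase in pathogen responses, went from 130 and 144 CPM to 39.5 and 47.4 CPM, and ERF5 from 23.1 and 29.6 CPM to 6.61 and 5.33 CPM. The fourth, ERF11, an ethylene-response repressor named after its values were seen, went from 3.097 and 4.49 CPM to 0.778 and 0.545 CPM. ERF105 kept its call whichever library was left out. ERF104 lost it without replicate 1 at 6 h (edgeR adjusted p = 0.0831), ERF5 without either 6 h library (highest 0.0725), and ERF11 without replicate 2 at 0 h or either 6 h library (highest 0.0789), so 1 to 4 of the list fell in these fits.

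In the list of touch, wound and calcium-linked rapid genes 5 of 12 tested members fell and 0 rose, with a median of -1.17. Of the 12, 10 were below 0 h in both 6 h libraries, against 29.1% of all genes. MKK9, a kinase upstream of ethylene and camalexin synthesis, went from 29.4 and 34.6 CPM to 11.55 and 12.1 CPM (log2 fold change -1.43, SE 0.22; edgeR adjusted p = 0.00289) and kept its call without any one library. ATL2, a RING-type ubiquitin ligase of early defence responses, fell from 37.9 and 50.5 CPM to 17.61 and 17.9 CPM (edgeR adjusted p = 0.00620). TCH2 and TCH3, calmodulin-like proteins induced by touch, fell to 36.7 and 32.2 CPM from 69.1 and 71.2 CPM and to 149 and 187 CPM from 461 and 526 CPM. BAP1, an inhibitor of cell death, fell from 14.2 and 16.0 CPM to 2.67 and 3.27 CPM. Without replicate 1 at 0 h or replicate 2 at 6 h 2 of the 5 were called, and without replicate 2 at 0 h or replicate 1 at 6 h 1 was.

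Of 21 other stress transcription factors tested 2 rose and 3 fell, against 4.26% and 2.24% of all genes. The zinc finger repressor ZAT10, which responds to salt, cold and wounding, fell from 91.6 and 118 CPM to 20.3 and 18.3 CPM (log2 fold change -2.44, SE 0.43; edgeR adjusted p = 0.00660). The related factors ZAT12 and AZF3 also fell, to 12.2 and 12.7 CPM from 29.4 and 37.8 CPM and to 5.61 and 4.48 CPM from 12.0 and 14.5 CPM. These 3 falls were fragile: 1 was called without either 0 h library and 0 without either 6 h library. ERF53, a drought-responsive factor of the DREB group, was higher, at 2.56 and 1.63 CPM against 2 counts in all at 0 h, a ratio of 45.4 with a 95% counting interval of 12.1 to 382.0. ATAF1, a NAC factor named after its values were seen, rose from 97.1 and 117 CPM to 178 and 188 CPM (edgeR adjusted p = 0.0328; highest 0.252 without 1 library).

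The WRKY factors, a plant family that binds W-box promoters in defence and stress, lay on both sides of the 0 h level. Of 37 tested members 1 rose and 0 fell against 4.26% and 2.24% of all genes. Log2 fold changes ran from -1.64 to 2.06 with a median of 0.03. Of the 37, 10 were above and 13 below 0 h in both 6 h libraries, against 29.7% and 29.1% of all genes. WRKY70, a regulator of salicylic acid responses, had 7.02 and 9.04 CPM at 0 h and 1.89 and 3.27 CPM at 6 h (edgeR adjusted p = 0.0542), and WRKY40, a repressor in defence and ABA signalling, had 20.4 and 19.1 CPM and then 9.83 and 12.4 CPM (edgeR adjusted p = 0.0947). WRKY17 was the called member, from 22.5 and 24.5 CPM to 32.7 and 32.0 CPM (log2 fold change 0.46, SE 0.12; edgeR adjusted p = 0.0442), a call lost without any one of the 4 libraries (highest 0.286). WRKY25 had 44.7 and 44.0 CPM at 0 h and 38.4 and 39.2 CPM at 6 h, a log2 fold change of -0.19 with a 95% interval from -0.64 to 0.26 (edgeR adjusted p = 0.629). WRKY33, a regulator of camalexin synthesis, had 60.6 and 46.2 CPM at 0 h and 27.3 and 26.9 CPM at 6 h, a log2 fold change of -0.98 with an interval from -1.91 to -0.04 (edgeR adjusted p = 0.202). Both 6 h libraries were below both 0 h libraries for each gene, and neither passed the test.

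In the gibberellin and brassinosteroid list 3 of 17 tested genes rose and 1 fell, against 4.26% and 2.24% of all genes. GASA1 (AT1G75750), a small gibberellin-regulated protein, fell from 1239 and 1230 CPM to 210.1 and 326 CPM (log2 fold change -2.20, SE 0.26; edgeR adjusted p = 0.000672), and the gibberellin synthesis enzyme GA20OX2 rose from 2.75 and 2.99 CPM to 7.498 and 6.17 CPM (edgeR adjusted p = 0.0189; highest 0.166 without 1 library). The GASA1 call held whichever library was left out, while 0 of the 3 rises did. In the cytokinin list 3 of 15 fell, against 2.24% of all genes, and 1 rose: the response regulators ARR3 and ARR9 and the degrading enzyme CKX1 were lower, and CYP735A2, which makes trans-zeatin and was named after its values were seen, was higher. ARR3 stood at 1.396 and 1.597 CPM at 0 h and 0.278 and 0.182 CPM at 6 h, and 0 of the 3 falls stayed called when any one of the 4 libraries was left out.

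In the auxin list 2 of 22 rose and 1 fell, against 4.26% and 2.24% of all genes. ARGOS, an auxin-induced gene of organ growth, fell from 8.03 and 6.69 CPM to 1.61 and 2.24 CPM (log2 fold change -1.94, SE 0.25; edgeR adjusted p = 0.00115) and kept its call without any one library. YUC9, an auxin synthesis enzyme, rose from 3 counts to 36 counts, a ratio of 14.9 with a 95% counting interval of 4.72 to 75.8. Its 6 h libraries were uneven, at 1.44 and 0.605 CPM, and the interval leaves out this spread. The YUC9 call was lost without either 0 h library and without replicate 1 at 6 h. PIN2, the root auxin carrier, rose from 11.47 and 10.9 CPM to 17.7 and 18.9 CPM (edgeR adjusted p = 0.0498). That call was lost without any one of the 4 libraries. In the jasmonate list 1 of 19 rose, AOS, an enzyme of jasmonate synthesis, from 12.9 and 18.22 CPM to 42.4 and 44.0 CPM (edgeR adjusted p = 0.0329; highest 0.251 without 1 library). In ethylene synthesis and perception 0 of 13 and in salicylic acid and PR genes 0 of 10 were called. At an unadjusted p below 0.05 in the edgeR test there were 3474 of the 15407 genes tested.

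Of 33 tested nuclear genes for light harvesting and the photosystems 0 were called at 6 h, and all had a log2 fold change above 0, from 0.03 to 0.84, with a median of 0.46, and 24 were above 0 h in both 6 h libraries, against 29.7% of all genes. LHCB3, a light-harvesting protein, had 3682 and 5316 CPM at 0 h and 8557 and 7386 CPM at 6 h (edgeR adjusted p = 0.0558). For 12 Calvin cycle genes tested the median was 0.31, all 12 were above 0 h in both 6 h libraries, and 1 was called: FBA1, an aldolase, from 1414 and 1860 CPM to 3186 and 3206 CPM (edgeR adjusted p = 0.0168). FBA1 lost its call without replicate 1 at 0 h and without either 6 h library (highest 0.178). Chlorophyll synthesis had 3 rises among 7 tested genes. PORC, the enzyme of the light-dependent step, rose from 114 and 116 CPM to 219.8 and 200.1 CPM (log2 fold change 0.87, SE 0.12; edgeR adjusted p = 0.00192), and kept its call without any one library. CHLH, a subunit of magnesium chelatase, rose from 3762 and 4068 CPM to 6371 and 6363 CPM, and HEMA1, the first committed enzyme, from 945 and 922 CPM to 1381 and 1362 CPM, and both lost their calls without any one of the 4 libraries (highest 0.182 and 0.161). The 76 chloroplast-encoded genes tested had a median log2 fold change of -1.29, with 0 called higher and 1 lower, while their share of reads at 0 h differed between the replicates. The shoot marker sum was also higher at 6 h, but LHCB3 is part of it and its other members are photosynthesis genes too. That sum is therefore not separate evidence. Several light-harvesting genes are near-identical copies whose reads may be split.

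Of 16 tested flavonoid and anthocyanin genes 5 rose and 0 fell, with a median of 0.75, but 0 were called when any one of the 4 libraries was left out. F3'H, a flavonoid hydroxylase, stood at 7.02 and 6.24 CPM at 0 h and 12.1 and 13.9 CPM at 6 h (log2 fold change 0.96, SE 0.19; edgeR adjusted p = 0.0123). GSTF12, needed to carry anthocyanins to the vacuole, rose from 0.742 and 0.549 CPM to 2.67 and 2.42 CPM, and MYBL2, a repressor of the pathway, from 133 and 174 CPM to 298 and 252 CPM. In the circadian clock list 3 of 17 rose and 1 fell, against 4.26% and 2.24% of all genes. CDF1, a repressor in the flowering pathway, went from 9.47 and 9.84 CPM to 21.9 and 23.1 CPM (log2 fold change 1.22, SE 0.17; edgeR adjusted p = 0.00213), and it alone was called without any one library. GI and ELF4 rose by 0.74 and 0.71 on the log2 scale, and the morning factor LHY, named after its values were seen, fell by 0.76.

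Among genes of protein quality and redox control, 2 of 14 heat shock genes rose, the heat shock factors HSFA2, from 0.829 and 0.899 CPM to 5.00 and 4.42 CPM, and HSFA6A, from 3.62 and 2.89 CPM to 11.3 and 5.63 CPM. Both calls were lost without either 0 h library and without replicate 1 at 6 h (highest edgeR adjusted p 0.106 and 0.298). In the unfolded protein response list 1 of 12 fell, the chaperone BIP3, from 4.89 and 4.99 CPM to 0.555 and 0.847 CPM (edgeR adjusted p = 0.0388; highest 0.287 without 1 library). In the redox list 2 of 17 rose: DHAR1, which regenerates ascorbate, from 75.0 and 104 CPM to 283 and 253 CPM (log2 fold change 1.58, SE 0.22; edgeR adjusted p = 0.00180), and the catalase CAT3, from 867 and 1129 CPM to 1978 and 1787 CPM (edgeR adjusted p = 0.0254; highest 0.225 without 1 library). SWEET15, a sucrose transporter known from senescence, rose from 0.698 and 0.749 CPM to 7.78 and 4.90 CPM (edgeR adjusted p = 0.0119; lost without either 0 h library and without replicate 1 at 6 h, highest 0.119), and 2 of 14 genes of its list rose. Of 24 cell cycle and DNA replication genes 0 were called at 6 h, with a median of -0.27. The replication helicase subunit MCM5 had 18.02 and 15.4 CPM at 0 h and 10.2 and 10.2 CPM at 6 h (edgeR adjusted p = 0.0610). Of 5 autophagy genes tested 0 were called.

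**Figure D2:**
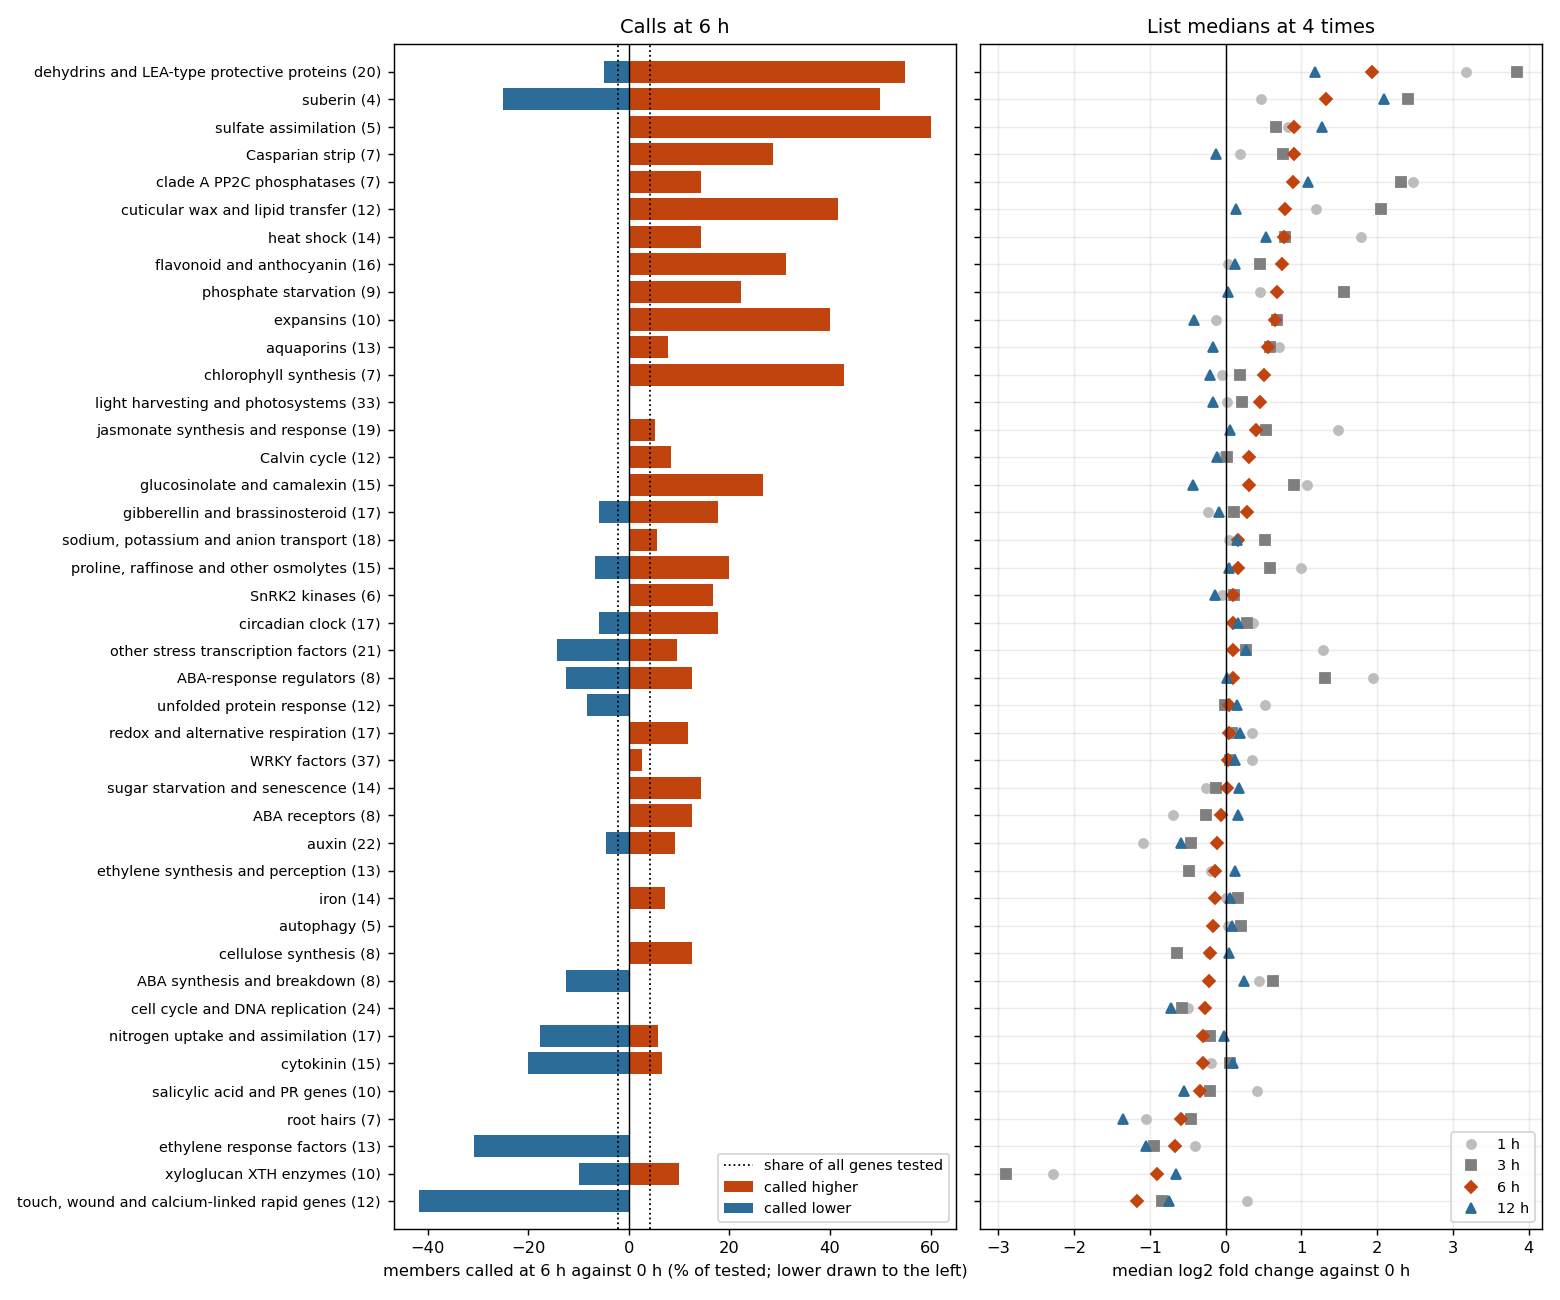
Left, share of tested members of each gene list (number tested in brackets) called higher (orange, to the right) or lower (blue, to the left) at 6 h against 0 h, with dotted lines at the shares over all genes tested, 4.26% and 2.24%. Right, median log2 fold change of each list against the same 0 h libraries at 1, 3, 6 and 12 h; the dehydrin list stands at 3.17, 3.85, 1.93 and 1.18, and the touch list has the lowest median at 6 h, -1.17.

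What had already returned was assessed for the genes called earlier against the same 0 h libraries, 2185 at 1 h (14.2% of genes tested; 8.74% higher and 5.45% lower) and 2318 at 3 h (8.50% of genes tested higher and 6.54% lower). A gene was counted as back when it was not called at 6 h, the 95% interval of its 6 h log2 fold change lay within -1 to 1, and the direct test of 6 h against the early time was called in the opposite direction. Of the genes called at 1 h, 961 (44.0%) were back, 304 (13.9%) were still called the same way, 40 were called the other way and 880 (40.3%) were undecided. Of the genes called at 3 h, 479 (20.7%) were back, 609 (26.3%) were still called the same way, 7 were called the other way and 1223 (52.8%) were undecided. Of the 1 h genes, 605 of 1346 higher and 356 of 839 lower ones were back, and of the 3 h genes 223 of 1310 higher and 256 of 1008 lower ones. All these comparisons share the 0 h libraries, and those of 6 h share the 6 h libraries.

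The number back depends on the libraries and on the bound. From 1 h it was 581 without replicate 1 and 497 without replicate 2 at 0 h, and 600 and 514 without replicates 1 and 2 at 6 h. From 3 h the same fits gave 272, 253, 218 and 90, and fits without replicates 1 and 2 at 3 h gave 235 and 221. With a bound of 0.58 in place of 1 it was 459 from 1 h and 225 from 3 h. Over all genes, the root mean square log2 distance of a library to the 0 h mean was 0.79 for both 1 h libraries and 0.80 to 0.82 for those of 3 h. It was 0.65 and 0.61 for the 6 h libraries and 0.60 to 0.61 for those of 12 h, so the 6 h libraries lay nearer to 0 h than those of 1 h and 3 h.

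**Figure D3:**
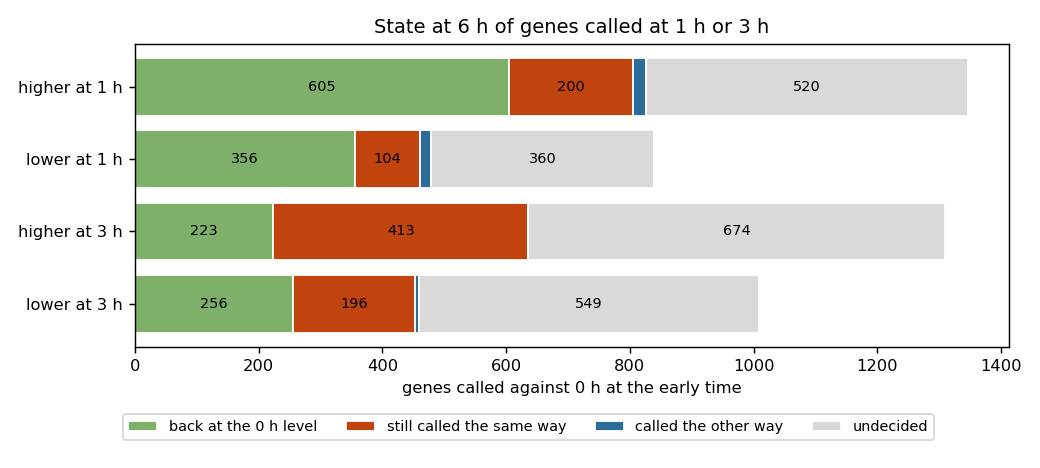
Number of genes called higher or lower at 1 h or 3 h against 0 h, split by their state at 6 h: back at the 0 h level (green), still called the same way (orange), called the other way (blue) or undecided (grey). From 1 h 605 and 356 genes were back, from 3 h 223 and 256.

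Of 7 tested ABA receptors called at 1 h, 5 were back, 1 was still moved and 1 was undecided. PYL6 (AT2G40330) had 24.4 and 31.3 CPM at 0 h, 1.27 and 2.92 CPM at 1 h, 4.59 and 6.50 CPM at 3 h and 28.2 and 24.0 CPM at 6 h. On the log2 scale it differed from 0 h by -3.78 after 1 h, by -2.34 after 3 h and by -0.10 after 6 h, with a 6 h interval from -0.64 to 0.45. PYL4 followed the same course, with 224 and 292 CPM at 0 h, 28.8 and 54.8 CPM at 1 h and 238 and 227 CPM at 6 h. PYL7, by contrast, was higher at every time, by 2.49 at 1 h, 0.76 at 3 h and 1.03 at 6 h on the log2 scale, and had 33.4 and 28.8 CPM at 6 h against 14.8 and 15.8 CPM at 0 h (edgeR adjusted p = 0.00115).

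Of 8 tested ABA-response regulators 7 rose by 1 h, and 4 of these were back at 6 h, 1 was still higher and 2 were undecided, where 44.0% of all genes called at 1 h were back. In other lists 8 of 15 stress factors and 6 of 11 WRKY factors called at 1 h were back. AFP1 (AT1G69260), which binds and restrains the ABA factor ABI5, had 10.6 and 11.53 CPM at 0 h, 93.9 and 88.1 CPM at 1 h, 37.8 and 45.3 CPM at 3 h and 11.8 and 8.83 CPM at 6 h. HB12, a homeodomain factor of ABA and drought responses, had 30.8 and 28.9 CPM at 0 h, 255 and 153 CPM at 1 h and 27.4 and 27.8 CPM at 6 h. ABF2, a bZIP factor that binds ABA-response elements, exceeded its 0 h level by 1.71 after 1 h, by 1.57 after 3 h and by 0.02 after 6 h on the log2 scale, with a 6 h interval from -0.37 to 0.41. HB7, the close relative of HB12, was the one still higher, with 9.69 and 9.53 CPM at 0 h and 32.2 and 24.8 CPM at 6 h (edgeR adjusted p = 0.0182), a call lost without either 0 h library and without replicate 1 at 6 h (highest 0.145). AFP4, which was not called at 1 h, was lower, with a log2 fold change of -0.87 (edgeR adjusted p = 0.0109; highest 0.137 without 1 library).

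The clade A PP2C phosphatases had 6 of 7 tested members higher at 1 h and 1 called higher at 6 h. Of the 6, 2 were back, 1 was still higher and 3 were undecided. The list median at 6 h was 0.89 on the log2 scale. In both 6 h libraries 5 of the 7 were above 0 h, against 29.7% of all genes, and 0 were below. ABI2, the called one, stood at 6.20 and 5.19 CPM at 0 h and 11.5 and 9.62 CPM at 6 h (log2 fold change 0.89, SE 0.18; edgeR adjusted p = 0.0120; highest 0.129 without 1 library), down from a log2 fold change of 2.87 at 1 h. HAB2 was back, with log2 fold changes of 1.64, 1.33 and 0.45 at 1, 3 and 6 h. HAI2, with 3 counts in all at 0 h and 16 at 6 h, was undecided. NCED3, the rate-limiting enzyme of ABA synthesis, was undecided too, with 1.18 and 1.55 CPM at 0 h and 5.00 and 2.66 CPM at 6 h (95% interval of the log2 fold change from -0.18 to 3.18; edgeR adjusted p = 0.278), after a log2 fold change of 5.72 at 1 h. In the SnRK2 kinase list 1 of 6 rose at 6 h, SNRK2.3, from 28.3 and 27.1 CPM to 41.2 and 42.8 CPM (edgeR adjusted p = 0.0172; highest 0.113 without 1 library).

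Several wax synthesis genes had returned, while LTP1 to LTP4 and KCS2 were still higher. In the wax and lipid transfer list all 12 tested members were higher at 3 h, of which 5 were back at 6 h, 5 still higher and 2 undecided. KCS1, an enzyme of wax chain elongation, had 130 and 154 CPM at 0 h, 442 and 540 CPM at 1 h, 408 and 484 CPM at 3 h and 164 and 153 CPM at 6 h (6 h log2 fold change 0.16, interval from -0.20 to 0.52). KCS6, the main elongase for wax chains, had log2 fold changes of 1.64 at 3 h and 0.29 at 6 h, and CER3, which turns them into alkanes, 1.77 and 0.51. MYB96, a factor that activates wax genes and a member of the list of other stress factors, was back as well, with 37.4 and 38.0 CPM at 0 h, 260 and 230 CPM at 1 h, 130 and 119 CPM at 3 h and 39.5 and 42.2 CPM at 6 h. In the direct test of 6 h against 3 h, KCS2 fell by 4.13 on the log2 scale (edgeR adjusted p = 6.77e-06), whereas LTP3, LTP4 and LTP2 differed by -0.64, -0.26 and -0.10 and were not called.

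Some genes that had dropped by 1 h were back as well. EXO, a brassinosteroid-responsive gene of leaf growth, had 226 and 254 CPM at 0 h, 16.4 and 21.4 CPM at 1 h, 24.5 and 29.4 CPM at 3 h and 174 and 329 CPM at 6 h, where the 2 libraries lay on either side of both 0 h values. XTH9 had 48.4 and 61.0 CPM at 0 h, 6.59 and 7.11 CPM at 1 h and 46.6 and 62.7 CPM at 6 h, and it was the 1 member of the XTH list back of 5 lower at 1 h, with 3 undecided and 1 still lower. In the auxin list 10 of 22 members were lower at 1 h, and by 6 h 6 of them were back, 1 was still lower, 1, PIN2, was higher and 2 were undecided. In the jasmonate list 12 of 19 were higher at 1 h, and 5 were back, 1 still higher and 6 undecided. Other genes back from 1 h included MYB74, a factor induced by osmotic stress (3.23 at 1 h and -0.02 at 6 h on the log2 scale), the raffinose synthase RS5 (2.21 and 0.38) and the homeodomain factor HB6 (2.18 and 0.51), and CHI, a flavonoid enzyme, was back from 3 h (1.57 and 0.46).

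The back state of these named genes was not equally firm. PYL6, AFP1, MYB96, KCS1, KCS6, ABF2 and XTH9 were back in all 8 fits that left out a library at 0, 1, 3 or 6 h. PYL4 was undecided without replicate 1 at 0 h. EXO and HB12 were undecided without replicate 2 at 0 h and without either 6 h library. CER3 and MYB74 were undecided without any one of the 4 libraries at 0 and 6 h, RS5 without replicate 2 at 0 h or 6 h, HB6 without either 0 h library or replicate 2 at 6 h, and CHI without replicate 2 at 0 h, 3 h or 6 h.

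**Figure D4:**
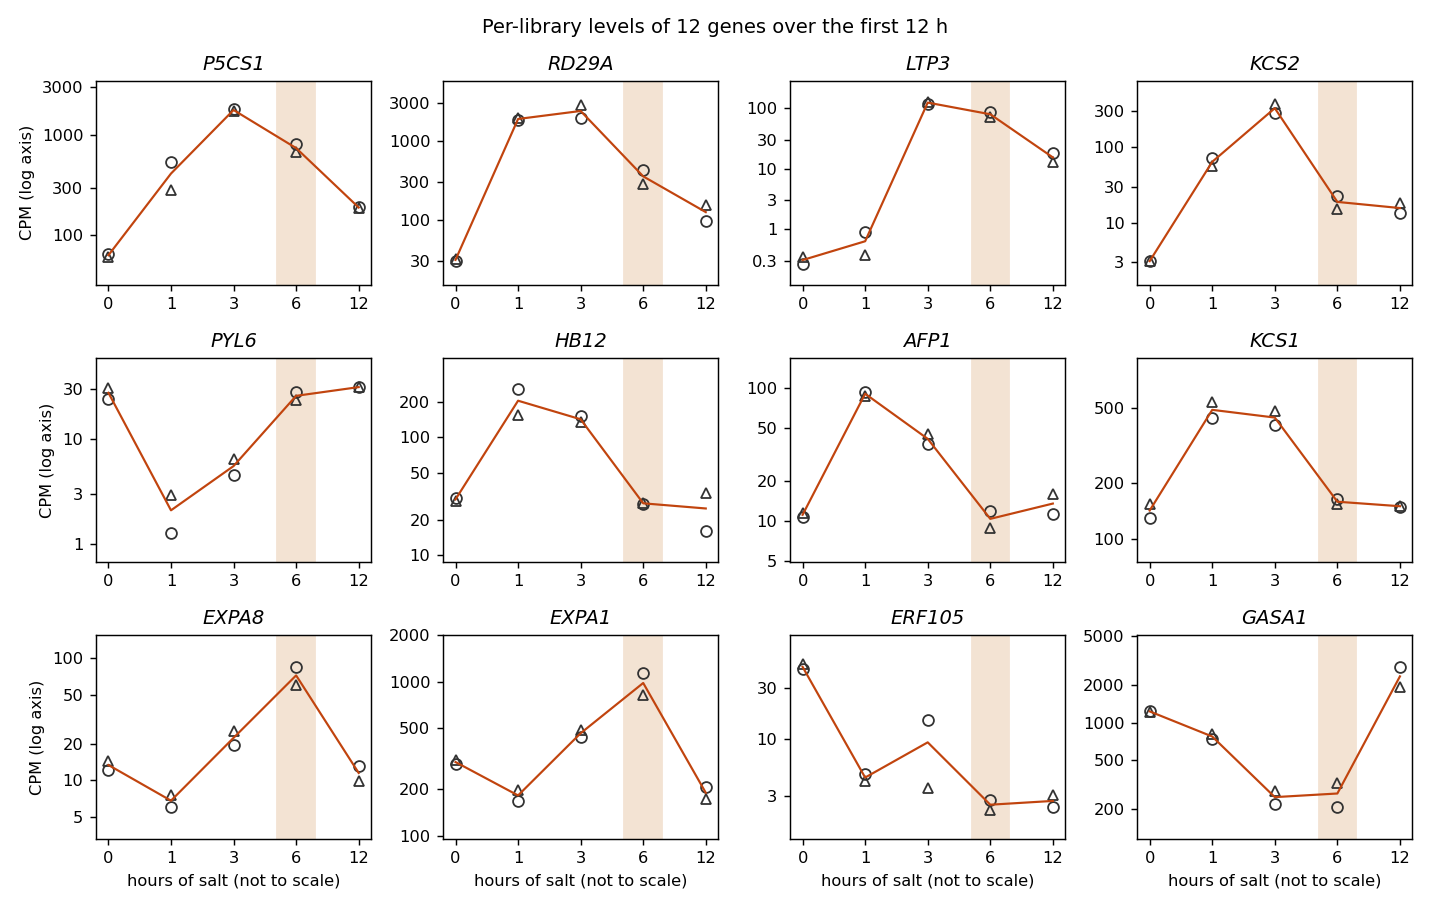
Levels of 12 genes in each library at 0, 1, 3, 6 and 12 h, as TMM-scaled CPM on log axes that differ between panels; circles are replicate 1, triangles replicate 2, the line joins the means and 6 h is shaded. The upper row was still above 0 h at 6 h, the middle row was back at the 0 h level, and the lower row holds EXPA8 and EXPA1, below 0 h at 1 h and above it at 6 h, and ERF105 and GASA1, both lower at 6 h.

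In the dehydrin and LEA list 15 members were higher at 1 h and 16 at 3 h, and 11 of each were still higher at 6 h, with 1 back. ERD14, an acidic dehydrin named after its values were seen, was the one back, with 297 and 361 CPM at 0 h and 369 and 250 CPM at 6 h. In the direct test of 6 h against 3 h, 9 of the 11 members still higher were called lower than at 3 h, and COR413IM1 and COR15A, with log2 changes of -0.47 and -2.05, did not pass (edgeR adjusted p = 0.470 and 0.146). RD29A fell by 2.74, KIN2 by 2.04, RD22 by 1.21 and, from the osmolyte list, P5CS1 by 1.26 on the log2 scale (edgeR adjusted p = 0.00172, 0.00212, 0.0414 and 0.00956). Over all genes, 591 were higher and 519 lower at 6 h than at 3 h (3.84% and 3.37% of genes tested).

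Of the genes called at 6 h, 329 were called at neither 1 h nor 3 h, 211 of them higher and 118 lower. Of these, 93 were also called, the same way, in the direct test against 3 h. The count of 93 uses comparisons with shared libraries and was 22 and 47 without replicates 1 and 2 at 0 h, 16 and 14 without replicates 1 and 2 at 6 h, and 39 and 58 without replicates 1 and 2 at 3 h. Of the 93, 4 have a name here: F3'H and MYBL2 of the flavonoid pathway were higher than at 3 h by 0.70 and 0.95 on the log2 scale, and CYP707A2, which breaks down ABA, and ARR9 were lower by 1.03 and 0.63. CYP707A2 had 26.9 and 26.7 CPM at 0 h and 18.5 and 15.73 CPM at 6 h. These 4 genes lost their 6 h call without any one of the 4 libraries at 0 and 6 h.

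Between 6 h and 12 h, 328 genes rose and 475 fell (2.13% and 3.08% of genes tested). GASA1 rose by 3.15 on the log2 scale (edgeR adjusted p = 0.000268), from 210.1 and 326 CPM at 6 h to a mean of 2369 CPM at 12 h. EXPA8 fell by 2.65 and EXPA1 by 2.37 (edgeR adjusted p = 0.000332 and 0.000203). P5CS1 fell by 1.97, RD22 by 2.31, LTP3 by 2.37 and LTP2 by 1.89, all called, whereas ERF105, at 0.11, did not pass the test. The median log2 fold change of the dehydrin list against 0 h was 1.93 at 6 h and 1.18 at 12 h, and that of the wax and lipid transfer list 0.78 and 0.14.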

How the data were processed

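Expected counts per gene for the 16 libraries of the Arabidopsis time course were used as deposited by the authors. The table holds 24060 genes, and 1.42% of its values, spread over 973 genes, were fractional and were rounded. The submitters' processing notes name STAR and TAIR10; the sources used here give no versions, counting step or strand setting. Libraries were matched to times through the deposited condition sheet and the sample titles. No reference for Arabidopsis was used here, so no sequence or coordinate is given and names come only from the gene lists.

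In R 4.3.3 with edgeR 4.0.16, 15407 genes passed filterByExpr by time. After TMM scaling, all 16 libraries entered one quasi-likelihood fit that has 1 coefficient per time (8 residual degrees of freedom). Tests were two-sided with Benjamini-Hochberg adjustment over all genes tested and calls below 0.05. An SE is the size of the log2 change divided by the root of F, and intervals are 95%. CPM are TMM-scaled and not per length, so levels are compared only within a gene. DESeq2 1.42.0 was an alternative. The script was tested on simulated counts with known changes.

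Members and lists were chosen with earlier results of these data known. The rule for named genes took the 12 largest named rises and falls with a mean of at least 5 CPM and no overlap, up to 3 members per list with the smallest adjusted p, up to 10 genes back from 3 h and from 1 h, up to 8 called at 6 h and against 3 h but not earlier (4 had a name), and WRKY25 and WRKY33.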

Additional observations from a re-analysis of the deposited data

Results flagged for a closer look

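Some named genes moved in opposite directions at different times against the same 0 h libraries, with the difference itself called by the direct edgeR test. EXPA8 and EXPA1 were below 0 h at 1 h and above it at 6 h, and the log2 change from 1 h to 6 h was 3.41 (edgeR adjusted p = 9.80e-06) and 2.42 (edgeR adjusted p = 1.47e-05). PIN2 was below 0 h at 1 h and 3 h and above it at 6 h, with log2 changes of 2.24 from 1 h (edgeR adjusted p = 3.42e-05) and 1.62 from 3 h (edgeR adjusted p = 0.000701). ERF11 was above 0 h at 1 h, by 1.66 on the log2 scale, and below it at 6 h, with a change from 1 h to 6 h of -4.17 (edgeR adjusted p = 9.11e-05). The 6 h calls of EXPA8 and EXPA1 held without any one of the 4 libraries, and those of PIN2 and ERF11 did not. With 2 libraries per group no group was large enough for a check of single libraries that stand apart.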

How the results depend on the processing

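Another normalisation (RLE) and no filter on low counts left all counts within 1.5 times, with 1006 and 996 genes called at 6 h. The DESeq2 Wald test called 1527 at 6 h, with 468 still moved from 1 h, 73 and 15 called the other way from 1 h and 3 h, and 182 called at 6 h and against 3 h but at neither early time. The 4 libraries at 0 h and 6 h alone gave 2011. Leaving out 1 library at 0, 1, 3 or 6 h gave 184 to 1199 genes called at 6 h. From 1 h it gave 497 to 964 back, 73 to 310 still moved, 7 to 38 reversed and 582 to 1257 undecided, and from 3 h 90 to 548, 135 to 715, 0 to 10 and 712 to 1638, with 14 to 134 genes called at 6 h and against 3 h alone. In such fits the lone library is assumed to vary like the others. The last of these ranges covers genes called at 6 h and against 3 h but at neither early time against 0 h. A bound of 0.58 gave 459 back and 1382 undecided from 1 h, and 225 back from 3 h. Without the direct test 583 were undecided from 1 h, and 1091 back and 611 undecided from 3 h. None of the 102 named called genes changed direction under RLE, no filter, the replicate block, DESeq2, the 4 libraries alone or without a 0 h or 6 h library. Under DESeq2 and with the 4 libraries alone, 101 of them had a value to compare. Causes were not tested, beyond fewer libraries in the fits that leave one out.

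Replicate numbers were not taken as pairs: over 28 pairs of times the correlation of same-numbered libraries' deviations ran from -0.18 to 0.61 (median 0.09), over 0.1 in 13, and was -0.14 for 0 h and 6 h. With the replicate block 1267 genes were called at 6 h and 12 were reversed from 3 h; the other counts stayed within 1.5 times. Of 102 named called genes the block kept 101. Replicate 2 had a higher share of chloroplast-encoded and of mitochondria-encoded reads than replicate 1 at every time. The replicate number thus marked a difference in these reads. Beyond the block, its part in the results was not tested. With 2 libraries per time, small changes could be missed, and a gene that was not called is not shown to be at the 0 h level.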
